A study of Populus tremula x Populus alba with 6 samples.

Results

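LINE and SINE loci are the retrotransposon copies without long terminal repeats in a mobilome survey of poplar, a survey that amplifies and sequences extrachromosomal DNA. A locus was taken as a member when the first of its deposited family names began with L1, for LINE, or with SINE. This gave 41 of the 436 listed loci, 18 LINE and 23 SINE, and both classes are kept apart throughout. The material was the shoot apical meristem of the hybrid Populus tremula x Populus alba, clone 717-1B4. Its genotypes were wild type (WT) and RNAi ddm1 line 15 and line 23. Plants of each genotype either had control watering or went through drought and rewatering, called drought here, with 1 library for each of the 6 groups. Every plant shared the same clone, the sources used here do not name the promoter of the RNAi construct, and this DNA assay does not measure the level of ddm1.

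LINE elements of the L1 kind are autonomous retrotransposons. They encode a reverse transcriptase and an endonuclease and copy their RNA directly into a nicked target site, often stopping early, so that most genomic copies are shortened at the 5′ end. SINE elements are short and encode no protein. SINE2 families derive from tRNA genes, are transcribed by RNA polymerase III, and are known to depend on the machinery of LINE elements to move. DDM1 is a chromatin remodeller known in Arabidopsis to maintain DNA methylation and the silencing of transposable elements. LTR retrotransposons are the class best known for leaving circular DNA when their finished linear copies are joined end to end.

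Each library is a list of loci, with a depth value (headed DOC) and a second value headed SR, read here as split reads. The WT lists had 149 loci for control and 115 for drought, those of line 15 had 169 and 79, and those of line 23 had 109 and 44. Neither value is scaled to library size, and total reads are not used here. The lowest values in any list were 3 for depth, 3 for split reads and 0.801 for the fraction of the locus covered. A locus not in a list is therefore called unlisted, since it may only have missed the authors' unstated criteria. With 1 library per group no value has a replicate, and every p-value below comes from an exact test over libraries or genotypes. Coordinates are those of the deposited lists, with each start raised by 1 so that positions count from 1. The sources used here do not name the build, and no gene annotation or genome sequence was used.

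The LINE loci carried 3 names and spanned a wide range of lengths. L1-1_PTr was the first name of 7 loci of 286 to 1137 bp, L1-2_PTr of 8 loci of 138 to 257 bp, and L1-4_PTr of 3 loci of 252 to 4504 bp. Of the L1-2_PTr loci, 6 had a length of 138 or 139 bp, and these lay on 6 different chromosomes. They made 15 entries, with depth values from 4 to 110 and split-read values from 4 to 18. The similar lengths were noticed after the values were seen, and the sources used here do not say how reads that match several copies were placed.

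The SINE loci were uniform in length. SINE2-2_PTr was the first name of 18 loci and SINE2-1_PTr of 5, and 22 of the 23 measured 175 to 199 bp. The exception was a SINE2-2_PTr locus of 118 bp on chromosome 2. SINE loci lay on 15 chromosomes and LINE loci on 11 of the 19 in the lists. Chromosome 8 held 4 LINE loci, the most on any chromosome, and 27 of the 436 loci of all classes. Among loci with several names, 2 L1-1_PTr loci also carried a Gypsy name, and 2 SINE2-1_PTr loci also carried POPGY1_I-int, which names an internal part of a Gypsy element.

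**Figure D1:**
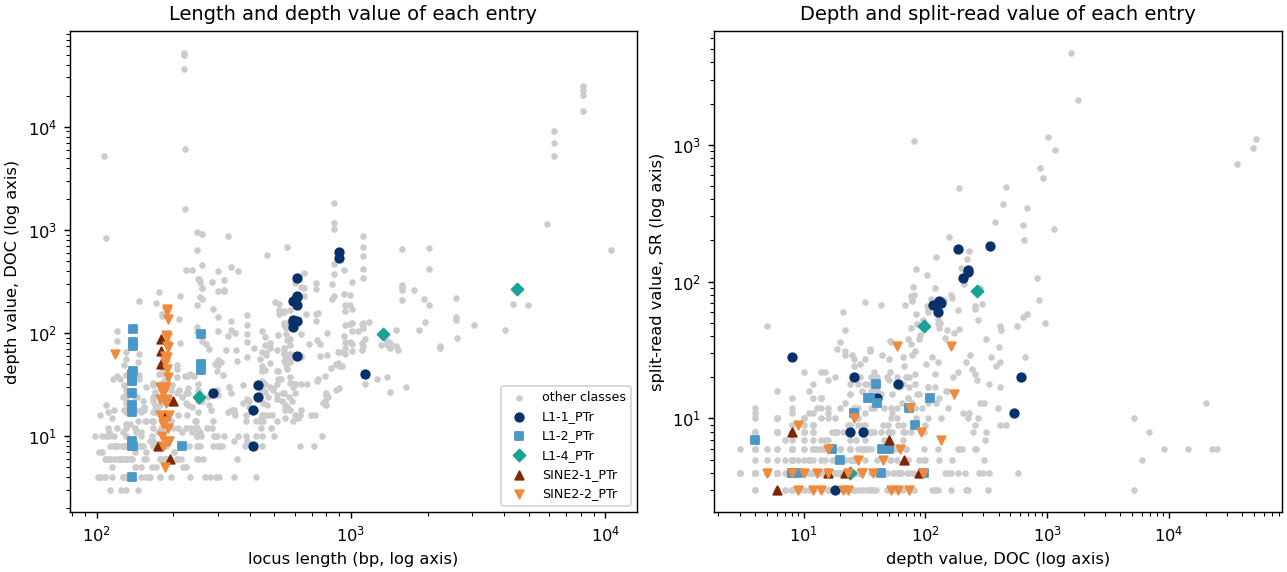
Left, depth value against locus length in bp for each of the 665 entries of the 6 lists; right, split-read value against depth value, all axes logarithmic. Coloured symbols are LINE and SINE families and grey points other classes. SINE entries stand in a narrow band of lengths, L1-2_PTr entries gather at 138 and 139 bp, and the L1-1_PTr entries reach the highest depth and split-read values of the LINE and SINE families.

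LINE loci recurred across libraries. Of the 18 LINE loci, 9 were listed in at least 2 of the 6 libraries, while 26.6% of all 436 loci were. For SINE loci it was 6 of 23 (26.1%), close to that background. Recurrence went with depth in all classes: over all loci the median of the highest depth value was 85 for those in 2 or more libraries and 16 for those in 1. For LINE loci these medians were 97 and 24, and for SINE loci 74 and 16. Whether LINE loci recur more often at equal depth was not tested.

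**Figure D2:**
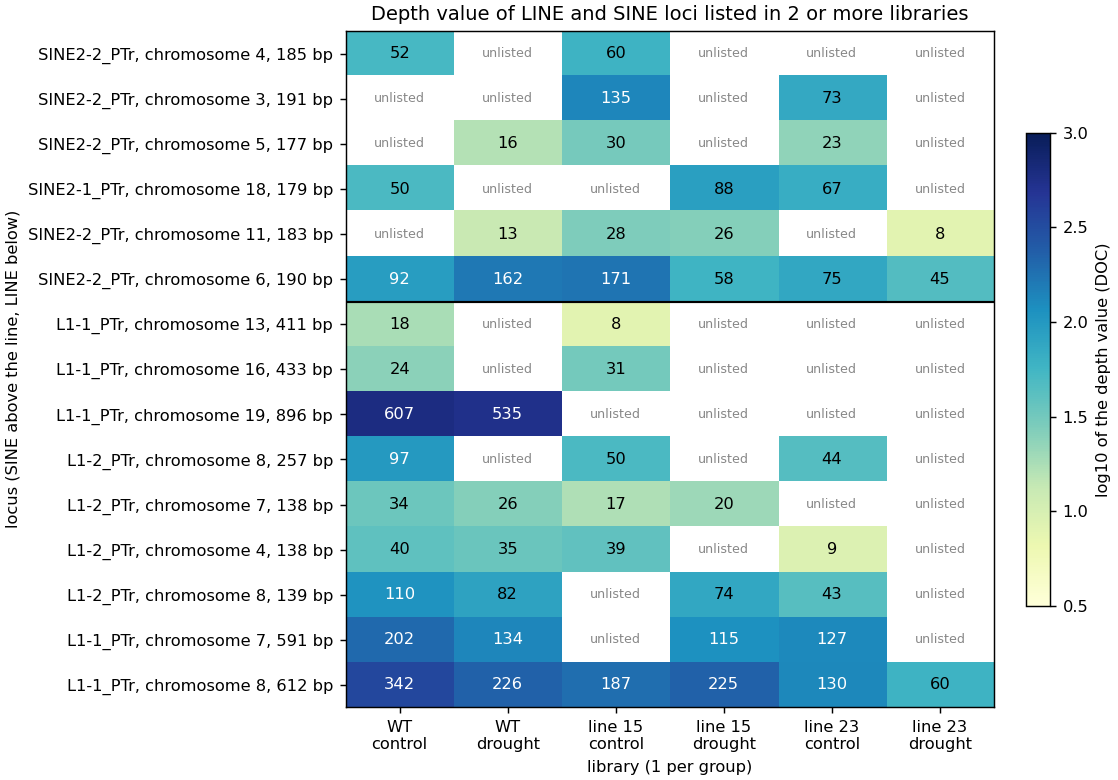
Depth value of the 15 LINE and SINE loci listed in 2 or more libraries (rows) in each of the 6 libraries (columns), with the colour on a log10 scale. The L1-1_PTr locus of 612 bp and the SINE2-2_PTr locus of 190 bp have a value in every column, and line 23 drought has 1 LINE value.

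The LINE locus found in every library was an L1-1_PTr copy of 612 bp at chr8:15378192-15378803, which also carried the name Gypsy-28_PTr-I-int. The depth value, given as control then drought, was 342 then 226 for WT, 187 then 225 for line 15, and 130 then 60 for line 23. Both WT values lay above the 4 RNAi values, the nearest pair being 226 and 225. As parts per 1000 of the summed depth of the list the groups overlapped, at 3.72 then 7.40 for WT, 2.69 then 4.49 for line 15, and 2.92 then 2.68 for line 23. The split-read value was 181 then 121 for WT, 173 then 117 for line 15, and 72 then 18 for line 23. This was the LINE locus with the highest depth value in all 4 RNAi libraries, and it took rank 9 to 20 of all loci in the 6 lists.

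A second L1-1_PTr locus, of 591 bp at chr7:7370421-7371011, had a similar profile where it was listed. The depth value was 202 then 134 for WT, 115 for line 15 after drought and 127 for line 23 under control watering. Its split-read value was 107, 70, 68 and 60. The fraction covered was 0.922, 0.882, 0.809 and 0.895, so the line 15 drought entry stood near the lowest fraction in any list. The locus was unlisted in line 15 control and line 23 drought.

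The highest depth of any LINE or SINE locus belonged to an L1-1_PTr locus of 896 bp at chr19:6567231-6568126, listed in WT alone. The depth value reached 607 under control watering, rank 8, and 535 after drought, rank 2. The split-read values were only 20 and 11, which is 3.29 and 2.06 per 100 units of depth. It also carried Gypsy-28_PTr-LTR and Gypsy10-PTR_LTR as names, and its covered fractions of 0.814 and 0.824 were close to the lowest in any list. Its level in the RNAi libraries is unknown, since a covered fraction slightly below these could leave it unlisted.

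The other recurrent L1-1_PTr loci were dim and restricted to control libraries. The locus of 411 bp at chr13:11310497-11310907 reached a depth of 18 for WT and 8 for line 15. Its split-read values went the other way, 3 and 28. The locus of 433 bp at chr16:7128710-7129142 reached 24 and 31, with a split-read value of 8 in both. Only 2 of the 40 LINE entries and 0 of the 37 SINE entries had a split-read value above the depth value, against 9.92% of all entries.

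Of the L1-2_PTr loci, 4 recurred. At the 139 bp locus, chr8:17851557-17851695, WT stood at a depth of 110 then 82, line 15 at 74 after drought, and line 23 at 43 under control watering. At a 138 bp copy, chr4:18674617-18674754, WT stood at 40 then 35, and the control libraries of lines 15 and 23 at 39 and 9. These 2 copies were lowest in line 23 control, and both were unlisted in line 23 drought.

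The remaining pair behaved differently in listing. The 138 bp copy at chr7:8394181-8394318 stood at a depth of 34 then 26 for WT and 17 then 20 for line 15, and was unlisted in both line 23 libraries. The locus of 257 bp at chr8:89800-90056 was listed in the 3 control libraries and in no drought library, at a depth of 97 for WT, 50 for line 15 and 44 for line 23. Its split-read values were 4, 6 and 6. At both loci the WT depth values as deposited lay above those of the RNAi libraries that listed them. How often this holds among loci of all classes listed in only some libraries was not counted. As parts per 1000 of the summed depth of the list, the groups overlapped at the 138 bp copy. Its values were 0.370 then 0.852 for WT and 0.244 then 0.399 for line 15. At the 257 bp locus WT stayed above both lines, at 1.05 for WT, 0.719 for line 15 and 0.989 for line 23. The lines changed places, and line 23 came close to WT.

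The SINE locus found in every library was a SINE2-2_PTr copy of 190 bp at chr6:2112611-2112800, covered over its whole length in each. The depth value was 92 then 162 for WT, 171 then 58 for line 15, and 75 then 45 for line 23. WT and RNAi values overlapped, as did control and drought values. The split-read value was 8 then 34 for WT, 15 then 34 for line 15, and 12 then 5 for line 23. The highest split-read value, 34, thus came both with a depth of 162 and with a depth of 58. It was the SINE locus with the highest depth in every library but line 15 drought.

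In line 15 drought that place was held by the SINE2-1_PTr locus of 179 bp at chr18:8537152-8537330. That library gave it a depth of 88, line 23 control gave 67 and WT control gave 50, with split-read values of 4, 5 and 7. The SINE2-2_PTr copy at chr11:2332606-2332788 reached 13 for WT after drought, 28 then 26 for line 15, and 8 for line 23 after drought. It was thus listed in all drought libraries but in the control library of line 15 alone. SINE2-2_PTr at chr5:5220663-5220839 reached 16 for WT after drought, and 30 and 23 for the control libraries of lines 15 and 23.

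The other recurrent SINE loci were listed under control watering only. SINE2-2_PTr at chr3:17769491-17769681 reached a depth of 135 for line 15 and 73 for line 23 and was unlisted for WT. SINE2-2_PTr at chr4:5877057-5877241 reached 52 for WT and 60 for line 15. Split-read values at these loci did not exceed 7.

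The members listed in a single library were 9 LINE and 17 SINE loci. The LINE loci ranged in depth value from 4 to 268 and the SINE loci from 5 to 96. Line 15 control alone supplied 9 of the 17 SINE loci, and 93 of the 320 single-library loci of all classes, the most of any library. Its 9 had depth values from 6 to 96 and a median of 22, and WT control supplied 4 SINE loci, with 5 to 30. The 2 deepest single-library members were L1-4_PTr loci of WT control, singled out after their values were seen. One, of 4504 bp at chr6:19737101-19741604, was the longest member, with a depth value of 268 and a split-read value of 85. It began 30 bp past the end of a Copia43-PTR_I-int locus of 1111 bp that was listed in all 3 control libraries. The second, of 1339 bp at chr3:2925330-2926668, had a depth value of 98 and a split-read value of 47. Within 1000 bp of another listed locus lay 2 of the 41 members and 27 of the 395 other loci.

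The first comparison asked whether fewer LINE and SINE loci were listed after drought. LINE loci numbered 12 then 8 for WT, 7 then 5 for line 15, and 7 then 1 for line 23. It was lower after drought in 3 of 3 genotypes, by a mean of 4 loci (difference -4, SD 2 over 3 genotypes; p = 0.25 by a two-sided exact sign-flip test, 0.45 adjusted over 9 tests). SINE loci numbered 7 then 3 for WT, 14 then 4 for line 15, and 5 then 4 for line 23. Drought minus control averaged -5 (SD 4.58 over 3 genotypes; p = 0.25 by the same exact test, 0.45 adjusted). With 3 genotypes this test cannot go below 0.25, so it could not pass 0.05.

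**Figure D3:**
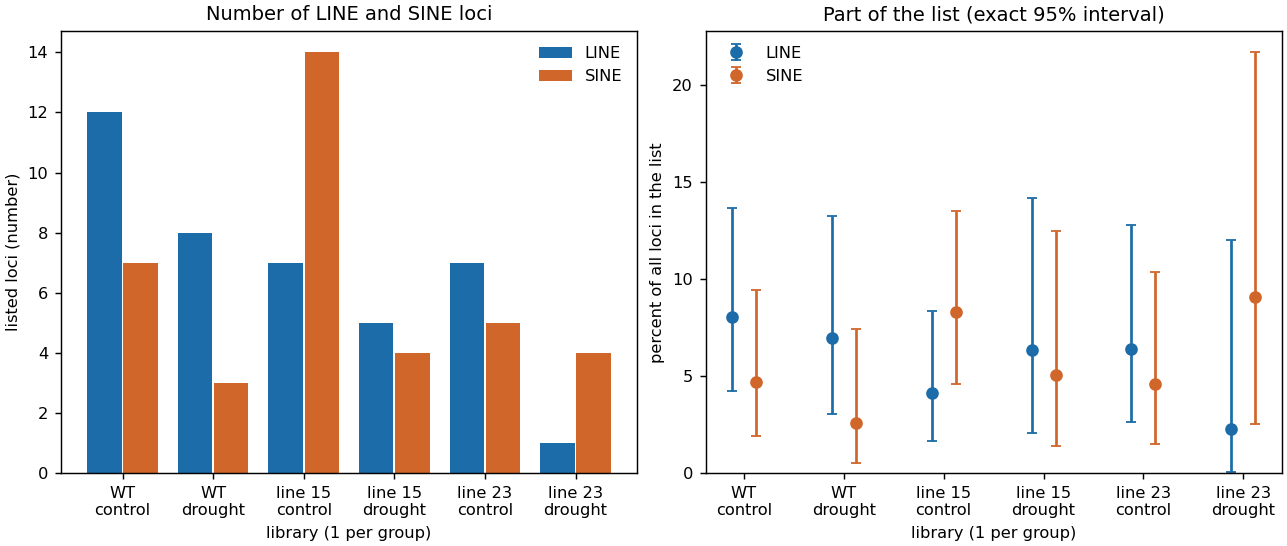
Left, number of LINE and SINE loci in each of the 6 libraries; right, the same as a percent of all loci in the list with exact 95% binomial intervals, which cover counting error only. LINE bars are higher in WT than in the RNAi lines and lower after drought in each genotype, SINE peaks at 14 in line 15 control, and the percent intervals overlap widely.

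The lists as a whole were also shorter after drought, and the part held by both classes did not move one way. The LINE part of the WT lists was 8.05% (exact 95% interval 4.23 to 13.6) then 6.96% (3.05 to 13.2). For line 15 it was 4.14% (1.68 to 8.35) then 6.33% (2.09 to 14.2), and for line 23 it was 6.42% (2.62 to 12.8) then 2.27% (0.0575 to 12.0). Drought minus control averaged -1.02 percentage points (SD 3.17 over 3 genotypes; exact sign-flip p = 0.75, or 0.984 adjusted), and it turned to 0.545 without line 23. The intervals cover counting error only, since amplified molecules are not independent.

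The SINE part was 4.70% (1.91 to 9.44) then 2.61% (0.541 to 7.43) for WT. It was 8.28% (4.60 to 13.5) then 5.06% (1.40 to 12.5) for line 15, and 4.59% (1.51 to 10.4) then 9.09% (2.53 to 21.7) for line 23. Drought minus control averaged -0.269 percentage points (SD 4.17 over 3 genotypes; exact sign-flip p = 1, also 1 when adjusted). Line 23 went up and the other genotypes down. The mean turned to 0.642 without WT and to 1.21 without line 15.

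Counted by locus, 9 of 18 LINE loci and 16 of 23 SINE loci were listed under control watering only, against 56.7% of all loci. After drought only, 3 LINE and 3 SINE loci were listed, against 24.5% of all. Of the loci listed in either WT library, 6 of 14 LINE and 6 of 9 SINE loci were in control alone, against 49.1% of all loci. In line 15 it was 5 of 10 LINE and 12 of 16 SINE loci against 63.8%, and in line 23 6 of 7 LINE and 4 of 8 SINE loci against 68.1%. These counts are descriptions with no test, and those within a genotype rest on 7 to 16 loci.

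Where a locus was listed under both waterings, depth could be compared. In WT, all 6 shared LINE loci had a lower depth value after drought, with log2 ratios of drought over control from -0.60 to -0.18. The lower value was found at 65.8% of the 38 loci of all classes listed in both WT libraries, whose median log2 ratio was -0.38. The LINE median was -0.41, so set against all loci the LINE loci stood within -0.22 and 0.20 of the general shift. The only shared SINE locus, SINE2-2_PTr on chromosome 6, went the other way, with a log2 ratio of 0.82.

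In line 15 the classes stood the other way round on depth as deposited. Both shared LINE loci were higher after drought, L1-1_PTr at 15378192 on chromosome 8 by a log2 ratio of 0.27 and L1-2_PTr at 8394181 on chromosome 7 by 0.23. Both shared SINE loci were lower, SINE2-2_PTr on chromosome 6 by -1.56 and SINE2-2_PTr on chromosome 11 by -0.11. On split reads each of these loci went the opposite way. The LINE loci were lower after drought, with log2 ratios of -0.56 and -0.26, and the SINE loci higher, at 1.18 and 1.00. Of all 30 shared loci of line 15, 63.3% were lower, with a median of -0.32. In line 23 the 2 shared members were lower, with -1.12 at L1-1_PTr and -0.74 at SINE2-2_PTr, beside 80.0% of 15 loci and a median of -0.55.

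Over the 3 genotypes neither of the members listed in all 6 libraries showed one direction. L1-1_PTr on chromosome 8 averaged -0.48 on the log2 scale (SD 0.70 over 3 genotypes; exact sign-flip p = 0.5, or 0.7 adjusted over the 7 loci of any class with a value in every library). SINE2-2_PTr on chromosome 6 averaged -0.49 (SD 1.21 over 3 genotypes; exact sign-flip p = 0.75, also 0.75 adjusted). When each value was divided by the summed depth of its list, the means turned to 0.54 and 0.53. On split reads plus 1 the L1-1_PTr mean was -1.03, and the SINE2-2_PTr mean turned to 0.66.

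LINE loci were fewer in the ddm1 RNAi libraries than in WT, the second contrast of the design. By first name, the 12 and 8 LINE loci of WT lay above the 7, 5, 7 and 1 of the RNAi libraries, so the groups did not overlap, and neither did their parts of the lists. The RNAi mean of 5 (SD 2.83, n = 4) was 5 below the WT mean of 10 (difference -5, exact two-sided permutation p = 0.133, adjusted p = 0.45). The difference was -5 under control watering and -5 after drought. With libraries matched by watering the exact permutation p was 0.111, the smallest that 9 splits allow. Over 15 splits the smallest possible p is 0.0667. Both tests treat the 2 libraries of a genotype as separate units. With genotypes kept whole, there are too few arrangements to give a p this small.

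As a part of the list the LINE loci stood in the same order. Their mean was 4.79% over the RNAi libraries (SD 1.98, n = 4) against 7.51% for WT (difference -2.71 percentage points, exact permutation p = 0.133, adjusted p = 0.45). The difference was -2.77 under control watering and -2.66 after drought. With loci of depth 20 or more it was -4.68 (exact permutation p = 0.0667). When a locus with L1-1_PTr as its second name was also counted, a Gypsy-27_PTr-LTR locus listed in line 15 only, it was -2.25 (exact permutation p = 0.267). With that locus counted the groups no longer stood apart. Line 15 control then equalled WT drought in number, and line 15 drought exceeded WT drought in percent.

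SINE numbers overlapped between the genotypes. The RNAi libraries listed 14, 4, 5 and 4 SINE loci and the WT libraries 7 and 3, with means of 6.75 (SD 4.86, n = 4) and 5 (difference 1.75, exact permutation p = 0.8, adjusted p = 0.984). The difference rested on line 15 control and was -0.5 without line 15. As a part of the list SINE loci made up 6.76% over the RNAi libraries (SD 2.26, n = 4) against 3.65% for WT, a difference of 3.10 percentage points (exact permutation p = 0.2, adjusted p = 0.45), with 1.74 under control watering and 4.47 after drought.

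Listing in RNAi libraries only was found for 14 of 23 SINE loci and 4 of 18 LINE loci, against 48.2% of all loci. Listing in WT only was found for 4 SINE and 6 LINE loci, against 30.5%. Of the 14 SINE loci, 9 were those seen in line 15 control alone. LINE and SINE numbers were also set against each other within each library. LINE loci outnumbered SINE loci in 4 of 6 libraries, by a mean of 0.5 over all 6 (SD 4.72, n = 6 libraries, exact sign-flip p = 0.875, adjusted p = 0.984).

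Depth at shared loci was compared for each RNAi line with WT. These comparisons share the WT library of their watering, so they are not independent. Under control watering 5 of the 6 LINE loci shared by line 15 and WT were lower in line 15, against 46.8% of 47 loci of all classes. The LINE median log2 ratio was -0.91 (range -1.17 to 0.37), and that of all loci was 0.07. All 5 LINE loci shared by line 23 and WT were lower in line 23, against 75.0% of 32 loci, with a median of -1.36 (range -2.15 to -0.67) beside -0.42 for all loci.

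A depth value at least 2-fold lower was reached by 2 of 6 LINE loci in line 15, where 23.4% of all shared loci reached it, and by 4 of 5 in line 23, where 25.0% did. In depth as deposited, the SINE loci shared under control watering did not follow the LINE loci. In line 15 both were higher, SINE2-2_PTr on chromosome 6 by a log2 ratio of 0.89 and SINE2-2_PTr on chromosome 4 by 0.21. In line 23 SINE2-1_PTr on chromosome 18 was higher by 0.42 and SINE2-2_PTr on chromosome 6 was lower, at -0.29. The depth of LINE loci against SINE loci was not tested, since the loci of a class are not replicates.

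**Figure D4:**
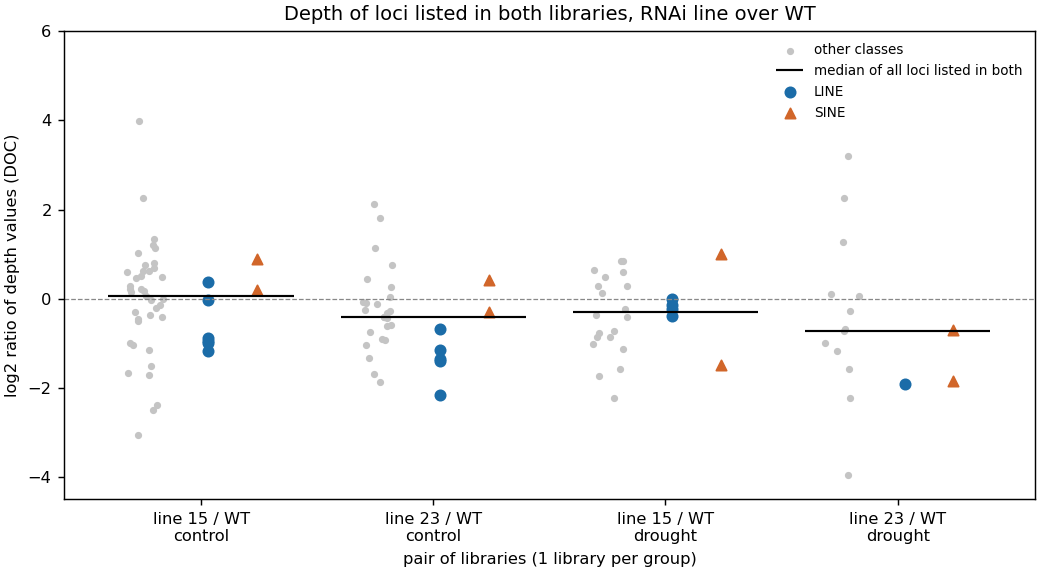
Log2 ratio of depth values as deposited, not divided by the summed depth of the list, RNAi line over WT, at loci listed in both libraries of each pair. Each group has 1 library. Blue circles are LINE, orange triangles SINE, grey points other classes, and the black bar is the median of all loci. Under control watering 10 of the 11 LINE points lie below 0, and 10 lie below the bar of their pair. These 11 points come from 8 loci and share the WT control library, so they are not independent.

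After drought the LINE loci of line 15 stood close to WT. All 4 shared LINE loci were lower, against 65.4% of 26 loci, but their log2 ratios lay between -0.38 and -0.01, with a median of -0.18 beside -0.30 for all loci. Line 23 shared 1 LINE locus with WT, L1-1_PTr on chromosome 8, at a log2 ratio of -1.91, where 68.8% of 16 loci were lower and the median was -0.71. Among SINE loci, SINE2-2_PTr on chromosome 6 was lower in both lines, at -1.48 in line 15 and -1.85 in line 23. SINE2-2_PTr on chromosome 11 was at 1.00 in line 15 and -0.70 in line 23.

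Tested over all 6 libraries, L1-1_PTr on chromosome 8 had a log2 difference of -1.05 between the RNAi and WT means (exact two-sided permutation p = 0.133, adjusted p = 0.56 over 7 loci). It was the only one of the 7 loci listed in all 6 libraries, 14.3%, whose RNAi values all lay below both WT values on depth as deposited. The separation was lost when depth was divided by the sum of the list, and on split reads, where 173 for line 15 control exceeded 121 for WT drought. The difference was then -0.75 (exact permutation p = 0.133) and, on split reads plus 1, -1.03 (exact permutation p = 0.4). SINE2-2_PTr on chromosome 6 had a difference of -0.68 (exact permutation p = 0.4, adjusted p = 0.56). It was -0.39 when divided by the sum of the list (exact permutation p = 0.733) and -0.30 on split reads plus 1 (exact permutation p = 0.8).

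LINE and SINE loci differed in how much split-read signal came with their depth, a measure chosen after the values were seen and given with no test. The median split-read value per 100 units of depth was 30.0 to 50.0 for LINE loci over the 6 libraries and 13.2 to 35.9 for SINE loci. LINE was the higher in 6 of 6 libraries, though line 23 drought had 1 LINE locus. Loci of other classes had medians of 25.6 to 50.0. Other-class loci within the SINE length range of 118 to 199 bp had 40.0 to 84.5, above the SINE median in each library, over 8 to 47 loci per list.

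Depth per 100 bp was higher in both classes than in the other loci, again as a description with no test. Its median over LINE loci was 9.80 to 26.8 and over SINE loci 7.47 to 37.4, and over other loci 6.73 to 12.7. Each class lay above the other loci in 6 of 6 libraries, though the libraries share loci and line 23 drought had 1 LINE locus. Against other loci within the SINE length range, whose medians were 3.13 to 10.0, SINE loci were also higher in 6 of 6. In WT drought, with 3 SINE loci, the medians were close, at 9.04 against 8.83. Even so, LINE loci held only 0.268% to 3.45% and SINE loci 0.275% to 1.03% of the summed depth of a list. The dividing by length treats the depth value as a sum over the locus, which the headers do not state. Without the dividing, the median depth of SINE loci lay below that of other loci in 4 of 6 libraries. The undivided LINE median lay above that of other loci in 5.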

How the data were processed

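Total DNA was prepared by CTAB, its extrachromosomal part amplified and turned into Nextera XT libraries, and both fragment ends sequenced for 250 bp on a MiSeq, per the labels. Bowtie2 is named, with no version, in the submitters' processing notes; no build, counting step or filter is given in the sources used here. The authors deposited 1 list per library, assigned to the sample whose title is its sheet name. The deposited depth and split-read columns are whole-number signal with no scaling, and the deposited covered part is a fraction although headed as a percent; deposited lengths, in bp, matched the deposited end minus the deposited start for each of the 665 entries; starts were therefore read as 0-based and are printed raised by 1. Loci were matched by identical coordinates, and no listed loci with different coordinates overlapped. No count model was fitted. Numbers and percents were compared with exact sign-flip and permutation tests (Python 3.11.15, pandas 2.3.3, NumPy 2.4.6, SciPy 1.17.1) with Benjamini-Hochberg adjustment, checked on simulated data. The 2 libraries of a genotype were paired in the drought tests and treated as separate units in the tests of RNAi against WT. Alternatives were any family name, depth of at least 20, merging within 1000 bp, other scalings, and leaving out a genotype. Named loci were members in at least 2 libraries and the deepest LINE and SINE locus of each library; others are named as chosen later. The members, lists and rules were chosen with earlier results of these data known. Nothing says whether a library came from 1 plant or several.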

Additional observations from a re-analysis of the deposited data

Results flagged for a closer look

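Among the 4 RNAi libraries, which span both waterings, the number of SINE loci for line 15 control, 14, lay far from the next highest, with a gap of 0.9 of the range. As a part of the list it was 8.28%, below the 9.09% of line 23 drought. Chance alone marks about 1 in 20 such groups. That rate supposes libraries of one kind, while these differ in line, watering and list length.

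From control to drought, the following went in opposite directions in different genotypes, on depth as deposited or on percent of the list. The differences between genotypes were not tested, and each direction rests on 1 pair of libraries. The log2 ratio of L1-1_PTr at chr8:15378192-15378803 was -0.60 for WT, 0.27 for line 15 and -1.12 for line 23. That of L1-2_PTr at chr7:8394181-8394318 was -0.39 for WT and 0.23 for line 15. That of SINE2-2_PTr at chr6:2112611-2112800 was 0.82 for WT, -1.56 for line 15 and -0.74 for line 23. The LINE percent of the list changed by -1.10 percentage points for WT, 2.19 for line 15 and -4.15 for line 23, and the SINE percent by -2.09, -3.22 and 4.50.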

How the results depend on the processing

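No alternative took any result past a p of 0.05, which most of these designs could not reach. Drought minus control lay between -5 and -3 for LINE number over 6 alternatives and for SINE number between -7 and -2.5; RNAi minus WT lay between -6 and -4 for LINE number, between -4.68 and -2.25 points for LINE percent, and between 3.02 and 3.55 points for SINE percent. LINE minus SINE number lay between 0.5 and 1.33. Directions turned in 7 instances. The SINE number, RNAi minus WT, was -0.5 without line 15. The drought change in LINE percent was 0.545 without line 23, and that in SINE percent 0.642 without WT and 1.21 without line 15, while it was -2.78 with depth of at least 20. The drought change in log2 depth became 0.54 at L1-1_PTr and 0.53 at SINE2-2_PTr when divided by the summed depth of the list, and 0.66 at SINE2-2_PTr on split reads plus 1; the cause was not tested. Libraries were paired by genotype for drought and matched by watering as an alternative for RNAi against WT; each group has 1 library, so there were no replicate numbers to pair by. Comparing SINE loci with other loci of like length was chosen after seeing the data.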
